A study of Mus musculus with 86 samples.

Results

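Malat1, Neat1, Meg3, Kcnq1ot1 and Miat are long noncoding RNAs that stay mostly in the nucleus. The 5 genes were chosen by name as nuclear and architectural RNAs, out of 53664 genes in the mouse libraries. Malat1 is an RNA of nuclear speckles, the bodies that hold splicing factors. Neat1 is the scaffold of paraspeckles, which form on its long isoform, while its short isoform is polyadenylated and does not build them. Both RNAs are known to bind TDP-43, an RNA-binding protein that prefers GU-rich sequence, and nuclear RNAs such as these also gauge how free of nuclei a neurite preparation is.

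The study asked how TDP-43, encoded by Tardbp, affects where RNAs lie in neuronal cells, and separated neurites from somas with porous Transwell membranes. RNA sequencing libraries from 2 mouse lines, CAD (a catecholaminergic neuronal line) and N2A (a neuroblastoma line), and from CAD cells with a TDP-43 transgene are described here, 36 of the 86 libraries of the series. In the CAD and N2A knockout experiments the endogenous Tardbp alleles had been inactivated by CRISPR/Cas9. They were replaced by a guide-resistant, HA-tagged, single-copy transgene under a promoter that doxycycline turns off (TetOff). Wild-type and knockout groups of these experiments therefore both carry the inactivated alleles. Cells without doxycycline are called wild type and cells given 2 µg/mL doxycycline for 48 hours, as the labels state, are called knockout. The methods of the study give a lower dose for the fractionation.

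The remaining experiment compared CAD cells with a single-copy doxycycline-inducible transgene of wild-type TDP-43 with cells carrying the Q331K form. Q331K is a mutation found in amyotrophic lateral sclerosis. Both transgenes were induced with doxycycline for 7 days according to the methods of the study. They had been integrated into wild-type CAD cells, so the endogenous alleles were not inactivated there. The study reports that expression of the transgene lowered them. Each line and genotype had 3 soma and 3 neurite libraries, which makes 12 groups. The knockout lines come from single-cell clones, and whether the replicates are separate cultures is not stated. In the CAD and N2A knockout experiments doxycycline was given only to the knockout cells, so its own effect and that of losing TDP-43 cannot be told apart. Assigned counts per library, in units of 1000000, ran from 25.0 to 32.9 in CAD, from 22.7 to 31.9 in N2A and from 9.78 to 15.9 in the transgene experiment.

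The neuronal markers Tubb3, Snap25, Gap43 and Stmn2 were above 0 in every library, and Tubb3 ranged from 151 to 557 TPM (transcripts per 1000000, a level per transcript length). The catecholaminergic marker Th was low at 0.0941 to 6.61 TPM. Dbh, the enzyme that makes noradrenaline, averaged 15.3 TPM in wild-type CAD somas and 43.8 TPM in knockout CAD somas, while Th went from 2.44 to 1.39 TPM and Ddc from 0.887 to 0.838 TPM. Of the markers for other cell types, Cldn5 was at 0 in 36 of 36 libraries, and Mog and P2ry12 were each at 0 in 34 of 36. The fibroblast marker Dcn averaged 19.9 TPM in somas with the wild-type transgene and 23.2 TPM in those with Q331K, and 0.917 TPM in wild-type CAD somas. The other fibroblast markers were not higher there, with Col1a1 at 1.31, 1.11 and 1.51 TPM and Col1a2 at 0.0872, 0.139 and 0.351 TPM in the same 3 groups.

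Tardbp itself was followed first, as counts per 1000000 scaled by TMM over all 36 libraries (CPM). In CAD somas it was at 528, 612 and 573 CPM in wild-type replicates 1, 2 and 3 and at 91.7, 95.8 and 104 CPM in knockout. In CAD neurites it was at 576, 538 and 543 CPM in wild type and at 163, 141 and 135 CPM in knockout. No knockout library reached the lowest wild-type library of its compartment. In N2A somas the values were 460, 534 and 522 CPM in wild type and 143, 161 and 179 CPM in knockout. In N2A neurites they were 619, 610 and 634 CPM in wild type and 242, 249 and 227 CPM in knockout, again without overlap. The deposited counts do not separate transcripts of the transgene from endogenous ones.

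Differences were tested in edgeR by the quasi-likelihood test over all genes, and a gene was called at an adjusted p (Benjamini-Hochberg false discovery rate, FDR) under 0.01. Tardbp fell on knockout by 2.52 on the log2 scale in CAD somas (SE 0.08, FDR 3.3e-12) and by 1.78 in N2A somas (SE 0.08, FDR 2.6e-09). In neurites it fell by 1.89 in CAD (FDR 3.9e-11) and by 1.41 in N2A (FDR 1.6e-08). The soma fall was smaller in N2A than in CAD, with a difference of 0.82 between the lines (FDR 1.1e-05). In the transgene experiment Tardbp was at 851, 814 and 745 CPM in wild-type somas and at 773, 758 and 857 CPM in Q331K somas, and in neurites at 867, 844 and 706 CPM and at 882, 854 and 847 CPM. Neither compartment was called, at a log2 difference of -0.02 in somas and 0.08 in neurites.

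Malat1 was the most abundant of the 5 RNAs. Its TPM exceeded those of the other 4 in 36 of 36 libraries and ranged from 24.7 to 623 TPM. Neat1 ranged from 0.122 to 29.2 TPM and stood above Kcnq1ot1, an antisense RNA that silences imprinted neighbours on the paternal chromosome, in 31 of 36 libraries. Kcnq1ot1 ranged from 0.0924 to 3.06 TPM, and exceeded Meg3 in 33 of 36 libraries. Meg3, a maternally expressed RNA of the Dlk1-Dio3 imprinted locus, lay between 0 and 1.46 TPM. Miat, an RNA of neuronal nuclear domains, had 0 to 5 estimated counts per library and was at 0 in 23 of 36. A count of 0 allows up to 3 counts, and such floors cover counting error only.

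The order of Malat1 first is one of levels per length, whereas the CPM values that follow are for comparing one RNA between libraries. The level of an RNA in TPM was not compared directly between somas and neurites. The reason is that the median gene's log2 ratio of neurite to soma TPM was -1.61 in wild-type CAD cells and -0.97 in Q331K cells. Isoform shares of TPM, and counts scaled for transcript length, which are built from TPM, were compared between them. With the 12 groups of each RNA put in order of mean CPM, all 11 pairs of neighbouring groups overlapped in their libraries for Malat1, Kcnq1ot1 and Meg3, and 7 of 11 did for Neat1. The highest mean of Neat1 was 134 CPM (SD 99.5, n = 3) in wild-type N2A somas. Its lowest was 1.98 CPM (SD 0.245, n = 3) in neurites with the wild-type transgene.

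Some libraries stood apart for several of these RNAs at once. Replicate 1 was the highest library for Malat1, Neat1 and Kcnq1ot1 in the 4 soma groups of CAD and N2A. Replicate 2 was the highest for the same RNAs in Q331K somas. In all, one library was the highest for these RNAs together in 5 of 6 soma groups and in 2 of 6 neurite groups. Over all genes too, replicate 1 stood apart in somas of CAD and N2A, least in knockout N2A. In wild-type somas the chi-square per df of pairs with replicate 1 was 38.9 and 43.9 in CAD and 32.3 and 42.0 in N2A. Between replicates 2 and 3 it was 13.9 in CAD and 9.74 in N2A. In knockout somas it was 26.5 and 39.1 against 12.7 in CAD, and 18.3 and 21.7 against 14.7 in N2A. In N2A neurites it was 74.5 and 62.8 against 11.5 in wild type, and 87.9 and 46.1 against 52.2 in knockout. In replicates 1, 2 and 3 of wild-type CAD somas the neuronal markers, Map2 and Syt1 included, summed to 1148.5, 1569.9 and 1705.8 TPM. Results are therefore also given without replicate 1 where that changes a call. Overlap between groups is described for single RNAs only, and the share of all genes without overlap was not counted.

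In CAD somas Malat1 was at 1853, 783 and 475 CPM in wild type and at 2533, 863 and 959 CPM in knockout. In CAD neurites it was at 781, 355 and 434 CPM in wild type and at 571, 437 and 546 CPM in knockout. The genotypes overlapped in both compartments, and somas lay above neurites without overlap in knockout but not in wild type. In N2A somas it was at 2288, 953 and 722 CPM in wild type and at 1814, 522 and 415 CPM in knockout. In N2A neurites it was at 515, 281 and 374 CPM in wild type and at 695, 382 and 516 CPM in knockout. Here wild-type somas lay above wild-type neurites without overlap, whereas the knockout compartments overlapped.

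With the wild-type transgene Malat1 was at 361, 975 and 786 CPM in somas and at 378, 337 and 464 CPM in neurites. With Q331K it was at 768, 1065 and 384 CPM in somas and at 327, 307 and 446 CPM in neurites. The compartments overlapped with either transgene, since 1 soma library of each was as low as the neurites.

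Neat1 differed more between the lines. In CAD somas it was at 27.7, 12.5 and 8.90 CPM in wild type and at 14.1, 9.07 and 9.70 CPM in knockout. In CAD neurites it was at 7.84, 4.71 and 6.08 CPM in wild type and at 6.35, 7.25 and 7.01 CPM in knockout. Somas lay above neurites without overlap in either genotype. In N2A somas it was at 248, 80.2 and 72.1 CPM in wild type and at 93.1, 30.7 and 29.3 CPM in knockout, which overlapped only through knockout replicate 1. In N2A neurites it was at 17.1, 17.7 and 20.8 CPM in wild type and at 24.8, 21.6 and 25.2 CPM in knockout. Every knockout library lay above every wild-type library there, but the difference was not called.

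Neat1 was sparse in the transgene experiment. With the wild-type transgene it was at 2.01, 3.04 and 2.29 CPM in somas and at 1.74, 2.23 and 1.99 CPM in neurites. With Q331K it was at 3.52, 6.24 and 3.06 CPM in somas and at 2.30, 1.13 and 3.19 CPM in neurites. Q331K somas lay above wild-type somas without overlap, and the lowest of them differed from the highest wild-type soma only in the second decimal.

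Kcnq1ot1 was at 101, 88.7 and 36.9 CPM in wild-type CAD somas and at 110, 62.3 and 55.9 CPM in knockout. In CAD neurites it was at 33.6, 27.1 and 20.3 CPM in wild type and at 25.9, 29.5 and 29.1 CPM in knockout. In N2A somas it was at 144, 94.4 and 64.6 CPM in wild type and at 88.2, 34.3 and 26.2 CPM in knockout. In these lines every soma group lay above its neurite group without overlap, while genotypes overlapped. In N2A neurites it was at 18.9, 20.7 and 22.1 CPM in wild type and at 22.4, 19.8 and 20.5 CPM in knockout. With the wild-type transgene it was at 21.7, 69.0 and 76.8 CPM in somas, and with Q331K at 77.8, 96.8 and 31.6 CPM. The neurite values with the transgenes were 29.0, 27.5 and 38.1 CPM for wild type and 22.5, 23.4 and 44.8 CPM for Q331K, and they overlapped with those of the somas.

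**Figure D1:**
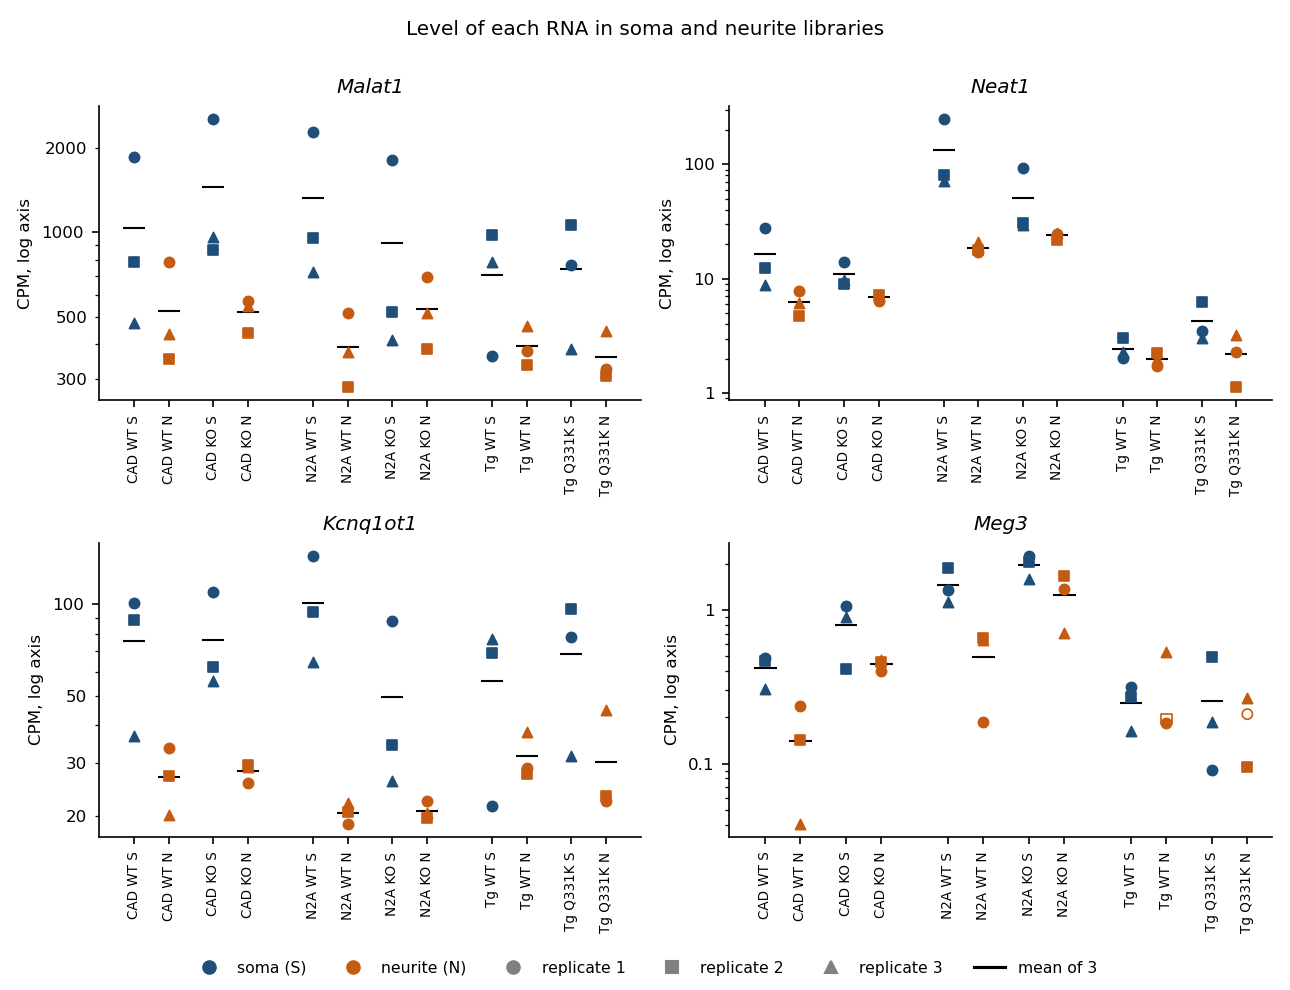
Level of Malat1, Neat1, Kcnq1ot1 and Meg3 in each library as CPM on a log axis, by line, genotype and compartment (S soma, N neurite, Tg transgene experiment), with the mean of 3 libraries as a bar. Open symbols in the Meg3 panel are libraries at 0, drawn at the floor of 3 counts, and their groups have no bar. Replicate 1 is the highest soma library of Malat1, Neat1 and Kcnq1ot1 in every CAD and N2A soma group.

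The first comparison asked how far each RNA was depleted from neurites, as the log2 ratio of neurite to soma (LR). In wild-type CAD cells 2 of the 5 RNAs were called, both lower in neurites, where 41.3% of all tested genes were called and 17.7% were called lower. Neat1 had an LR of -1.45 (SE 0.34, FDR 0.00213) and Kcnq1ot1 an LR of -1.53 (SE 0.33, FDR 0.000997). Malat1 had an LR of -1.04 (SE 0.46, FDR 0.0701) and Meg3 an LR of -1.63 (SE 0.59, FDR 0.0277), which were not called. These values turned on single libraries. Without replicate 1 Malat1 was called as well, at an LR of -0.72 (FDR 0.00512). Without replicate 2 the FDR was 0.0159 for Neat1 and 0.0221 for Kcnq1ot1, so that 0 were called. Over the alternative fits (here and below all but the planned one without a low-count filter, which disregarded each gene's own spread among replicates), the FDR of Neat1 ran from 0.000137 to 0.0424 and that of Kcnq1ot1 from 3.95e-05 to 0.0292.

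In knockout CAD cells 1 of the 5, Kcnq1ot1, was called, at an LR of -1.48 (SE 0.33, FDR 0.00115), where 43.6% of genes were called and 19% were called lower. Malat1 was just above the threshold at an LR of -1.55 (SE 0.47, FDR 0.0106). Without replicate 1 it was called, at an LR of -0.91 (FDR 0.00112), and its FDR over the alternatives ran from 0.000273 to 0.125. Neat1 had an LR of -0.71 (FDR 0.0910) and Meg3 an LR of -0.87 (FDR 0.128). Kcnq1ot1 was called with each replicate left out, at an LR between -1.69 and -1.03, but not with the low-count filter dropped and a robust prior (FDR 0.0348). With a term for replicate number or for culture in the fit 2 of the 5 were called, as with at least 10 counts in every library.

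In wild-type N2A cells 4 of the 5 were called, all lower in neurites, where 59.2% of genes were called and 26.6% were called lower. Neat1 had the lowest ratio in unscaled counts, with an LR of -2.93 (SE 0.50, FDR 9.7e-05), and Kcnq1ot1 followed at -2.37 (SE 0.39, FDR 6.7e-05). Malat1 had an LR of -1.83 (SE 0.53, FDR 0.00636) and Meg3 an LR of -1.60 (SE 0.42, FDR 0.00354). The calls of Neat1 and Kcnq1ot1 held with each replicate left out. That of Malat1 did not hold without replicate 2 (LR -1.82, FDR 0.0185), in DESeq2 (FDR 0.0128) or with the robust prior (FDR 0.0879). That of Meg3 did not hold without replicate 1 (LR -1.27, FDR 0.0263) or without replicate 2 (LR -1.63, FDR 0.0300). Counts scaled for transcript length brought the LR of Neat1 to -1.58 in these cells and to -0.72 in wild-type CAD cells, and that of Meg3 to -0.94 (FDR 0.157). With such counts the order in wild-type N2A cells was Kcnq1ot1 lowest at -2.28, then Malat1 at -1.69 and Neat1, so the lowest place of Neat1 depended on the count used.

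In knockout N2A cells 0 of the 5 were called by edgeR and 0 by DESeq2, where edgeR called 38.5% of genes, 13.1% lower in neurites, and 2 had an unadjusted p under 0.05. Kcnq1ot1 came nearest with an LR of -1.25 (SE 0.38, FDR 0.0134), and without replicate 3 it was called at -1.56 (FDR 0.00224, against 0.00224 to 0.143 over the alternatives). With a term for replicate number or for culture in the fit 1 of the 5 was called, as with at least 10 counts in every library. Neat1 had an LR of -1.10 (FDR 0.0695), Malat1 of -0.80 (FDR 0.213) and Meg3 of -0.63 (FDR 0.197). Ratios in all 4 tested RNAs were thus below 0 in both genotypes of both lines. Not all of them passed the test in CAD cells, and in knockout N2A cells 0 did without a change to the fit.

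With the wild-type transgene 0 of the 5 were called by either tool, where edgeR called 27.5% of genes, 12.6% lower in neurites, and 1 had an unadjusted p under 0.05. Malat1 had an LR of -0.79 (FDR 0.0608), Kcnq1ot1 of -0.77 (FDR 0.151) and Neat1 of -0.24 (FDR 0.648), which became 0.46 with length-scaled counts. With Q331K 0 of the 5 were called by either tool, where edgeR called 31.3% of genes, 14.5% lower in neurites, and 3 had an unadjusted p under 0.05. Here the LR was -0.995 for Malat1 (FDR 0.0197), -0.91 for Neat1 (FDR 0.0484) and -1.14 for Kcnq1ot1 (FDR 0.0337). Without replicate 3 Malat1 (LR -1.51, FDR 0.00285, against 0.00285 to 0.255 over the alternatives) and Kcnq1ot1 (LR -1.91, FDR 0.00135, against 0.00135 to 0.368) were called. Meg3 and Miat did not pass the low-count filter in this experiment, and Miat passed it in none.

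**Figure D2:**
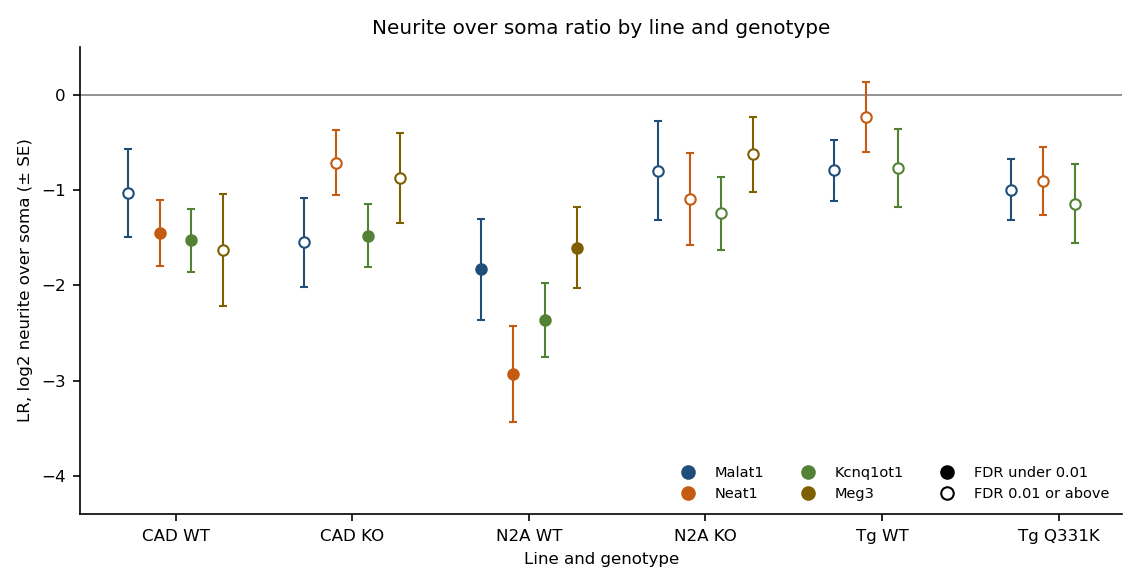
LR (log2 neurite over soma, from edgeR, with SE as bars) of 4 RNAs by line and genotype, 3 libraries per compartment, filled where FDR was under 0.01. The lowest value is that of Neat1 in wild-type N2A cells, -2.93, and every value drawn is below 0.

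Other lncRNAs were counted in the same comparisons, without a test of the lists. Of 11 tested cytoplasmic lncRNAs and snoRNA hosts, 8 were called higher in neurites in wild-type CAD cells and 9 in wild-type N2A cells, and 0 were called lower in either. Over all genes 4103 of 17343 were called higher in CAD and 5825 of 17912 in N2A. Among other nuclear lncRNAs, 5 of 8 tested were called lower in neurites in wild-type CAD cells, and 5 of 9 in wild-type N2A cells with 1 called higher, where 17.7% and 26.6% of all genes were called lower.

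The next comparison asked whether losing TDP-43 changed the LR. In CAD cells 0 of the 5 RNAs were called by edgeR and 0 by DESeq2, where edgeR called 0.432% of genes, and 0 had an unadjusted p under 0.05. The LR differed between knockout and wild type by -0.51 for Malat1 (95% interval -1.89 to 0.87) and by 0.74 for Neat1 (-0.30 to 1.77). For Kcnq1ot1 the difference was 0.05 (-0.93 to 1.03) and for Meg3 0.76 (-0.84 to 2.36), which became -0.53 with length-scaled counts. Each of these intervals spanned both directions.

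In N2A cells 0 of the 5 were called for a change of LR by edgeR and 0 by DESeq2, where edgeR called 0.1% of genes, and 1 had an unadjusted p under 0.05. That was Neat1, whose LR was higher in knockout by 1.83 (SE 0.68, 95% interval 0.39 to 3.27, FDR 0.0856). Without replicate 1 Neat1 was called, at a difference of 1.75 (FDR 0.00219), against an FDR of 0.00219 to 0.457 over the alternatives. The differences were 1.12 for Kcnq1ot1 (FDR 0.167), 1.04 for Malat1 (FDR 0.343) and 0.98 for Meg3 (FDR 0.256). The difference between the lines in this effect was not called for any of the 5 by edgeR, which called 0.203% of genes, and 0 had an unadjusted p under 0.05. It was 1.53 for Malat1 (FDR 0.464), 1.08 for Neat1 (FDR 0.570), 1.06 for Kcnq1ot1 (FDR 0.484) and 0.19 for Meg3 (FDR 0.963), so that the effect was not shown to differ between N2A and CAD.

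Levels within somas were compared next. In CAD somas 0 of the 5 were called on knockout by edgeR and 0 by DESeq2, where edgeR called 22.8% of genes, and 0 had an unadjusted p under 0.05. The log2 difference was 0.53 for Malat1 (FDR 0.444), -0.56 for Neat1 (FDR 0.211), 0.95 for Meg3 (FDR 0.131) and 0.05 for Kcnq1ot1 (FDR 0.939). With length-scaled counts the log2 difference of Neat1 was 0.00283 (FDR 0.992). In N2A somas 0 of the 5 were called by edgeR and 0 by DESeq2, where edgeR called 16.1% of genes, and 2 had an unadjusted p under 0.05. These were Neat1, at -1.50 (SE 0.47, FDR 0.0258), and Kcnq1ot1, at -1.13 (SE 0.37, FDR 0.0320). By mean TPM the log2 ratio of Neat1 between these groups was -0.99, against -1.39 by mean CPM. With a term for replicate number in the fit 2 of the 5 were called, Neat1 at -1.49 (FDR 0.00245) and Kcnq1ot1 at -1.21 (FDR 0.00303). Malat1, Neat1 and Kcnq1ot1 were each lower in knockout in 3 of 3 pairs of N2A soma libraries with the same replicate number. Meg3 was higher in knockout in 3 of 3 of these pairs. Without that term Malat1 was at -0.62 (FDR 0.370) and Meg3 at 0.32 (FDR 0.540) in N2A somas by edgeR. Malat1 was higher in knockout in 3 of 3 such pairs of CAD somas and of N2A neurites. Whether libraries with the same number belong together is not stated. Over all genes, r of same-number libraries between the N2A soma groups was 0.52, 0.10 and 0.30 for replicates 1, 2 and 3. Within soma groups r was 0.92 between Malat1 and Neat1 and 0.77 between Neat1 and Kcnq1ot1. Such pairs were not counted over all genes, so these counts are descriptions.

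These soma calls depended on how replicates were treated, while the size of the Neat1 difference did not. Without replicate 1 Neat1 was at -1.49 (FDR 8.9e-06), Kcnq1ot1 at -1.54 (FDR 0.000133) and Malat1 at -0.98 (FDR 0.00370), and 3 of the 5 were called lower in knockout N2A somas. Over the alternatives the FDR ran from 8.9e-06 to 0.183 for Neat1, from 0.000133 to 0.242 for Kcnq1ot1 and from 0.00370 to 0.638 for Malat1. In bulk RNA, fewer cells with an RNA and less of it per cell cannot be told apart. The soma effect of knockout was not called as different between the lines for any of the 5 by edgeR, which called 10.5% of genes, and 1 had an unadjusted p under 0.05. That was Kcnq1ot1, at -1.11 (FDR 0.143). Without replicate 1 the difference was called for Malat1 at -1.46 (FDR 0.00347, against 0.00347 to 0.586 over the alternatives) and for Neat1 at -1.24 (FDR 0.000483, against 0.000483 to 0.624).

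In neurites the RNA nearest to a call was Meg3. In CAD neurites 0 of the 5 were called by edgeR and 0 by DESeq2, where edgeR called 25.3% of genes, and 1 had an unadjusted p under 0.05. Meg3 was at 0.238, 0.143 and 0.0406 CPM in wild-type CAD neurites and at 0.400, 0.458 and 0.476 CPM in knockout. These groups did not overlap, but they rest on 1 to 11.1 estimated counts per library. The log2 difference was 1.71 (SE 0.60, FDR 0.0368). In N2A neurites 0 of the 5 were called by edgeR and 0 by DESeq2, where edgeR called 11.6% of genes, and again 1, Meg3, had an unadjusted p under 0.05.

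Meg3 was at 0.187, 0.655 and 0.638 CPM in wild-type N2A neurites and at 1.39, 1.67 and 0.713 CPM in knockout, a log2 difference of 1.30 (SE 0.43, FDR 0.0427). With the low-count filter dropped and a robust prior Meg3 was called in N2A neurites, at 1.31 (FDR 0.00788, against 0.00788 to 0.754 over the alternatives). Within each line every knockout neurite library had more Meg3 by CPM than any wild-type one of that line, but in N2A the nearest libraries had 20.2 and 20.1 estimated counts. By TPM the N2A groups overlapped, with knockout replicate 3 at 0.0363 TPM below all wild-type libraries. In somas Meg3 had 9.73 to 17.5 counts in wild-type CAD libraries and 14.4 to 34.0 in knockout, which overlapped. The other tested RNAs were close to 0 in the CAD neurite comparison, at 0.01 for Malat1, 0.18 for Neat1 and 0.10 for Kcnq1ot1. In N2A neurites they were at 0.41, 0.33 and -0.01. The difference between the lines was called for none of the 5 in neurites by edgeR, which called 9.18% of genes, with 0 at an unadjusted p under 0.05.

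Between the Q331K and wild-type transgenes 0 of the 5 RNAs were called in LR, soma or neurite level by edgeR or DESeq2, where edgeR called 0% of genes in each. The counts at an unadjusted p under 0.05 were 0, 1 and 0. The 1 was Neat1 in somas, at a log2 difference of 0.81 (SE 0.34, FDR 0.632). For Malat1 the difference was -0.20 in LR (FDR 0.999), 0.05 in somas (FDR 0.992) and -0.15 in neurites (FDR 0.918). For Kcnq1ot1 it was -0.37 in LR, 0.29 in somas and -0.08 in neurites. Without replicate 1 the LR difference of both took the opposite sign, at 0.19 and 0.23.

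The annotation holds a long transcript of Neat1, Neat1-201, of 20771 bases, and shorter ones, of which 1 short isoform held most of the rest. The share of Neat1 TPM in Neat1-201 is an estimate, because the isoforms share sequence. The libraries are given as polyA RNA, and recovery of ends without a poly(A) tail was not tested for Neat1-201 or for Malat1. In wild-type N2A somas the share was 69.1%, 31.0% and 25.8%, and in wild-type N2A neurites 11.4%, 10.5% and 7.44%. These groups did not overlap, and their means differed by -32.2 percentage points in an exact two-sided permutation test (p = 0.1, the smallest that 20 arrangements allow). Without replicate 1 the difference was -19.4 points. In knockout N2A somas it was 42.7%, 11.3% and 13.5%, and in knockout N2A neurites 11.5%, 7.12% and 6.80%, which overlapped.

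In wild-type CAD somas the long isoform held 45.7%, 17.9% and 11.6% of Neat1, and in knockout 21.0%, 8.63% and 9.52%, which overlapped. In CAD neurites it held 13.4%, 8.10% and 9.53% in wild type and 4.80%, 7.47% and 7.41% in knockout. Those groups did not overlap, and the mean was lower in knockout by a difference of -3.78 percentage points (exact p = 0.1), which was -1.38 without replicate 1 and -11.6 by estimated counts. In the transgene experiment the neurite share was 10.0%, 6.11% and 4.01% with wild type and 16.2%, 37.6% and 15.0% with Q331K, again without overlap (exact p = 0.1), at low counts. Of the 12 pairs of groups compared, 4 did not overlap. Replicate 1 was the highest soma library in all 4 CAD and N2A soma groups for this share as well.

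**Figure D3:**
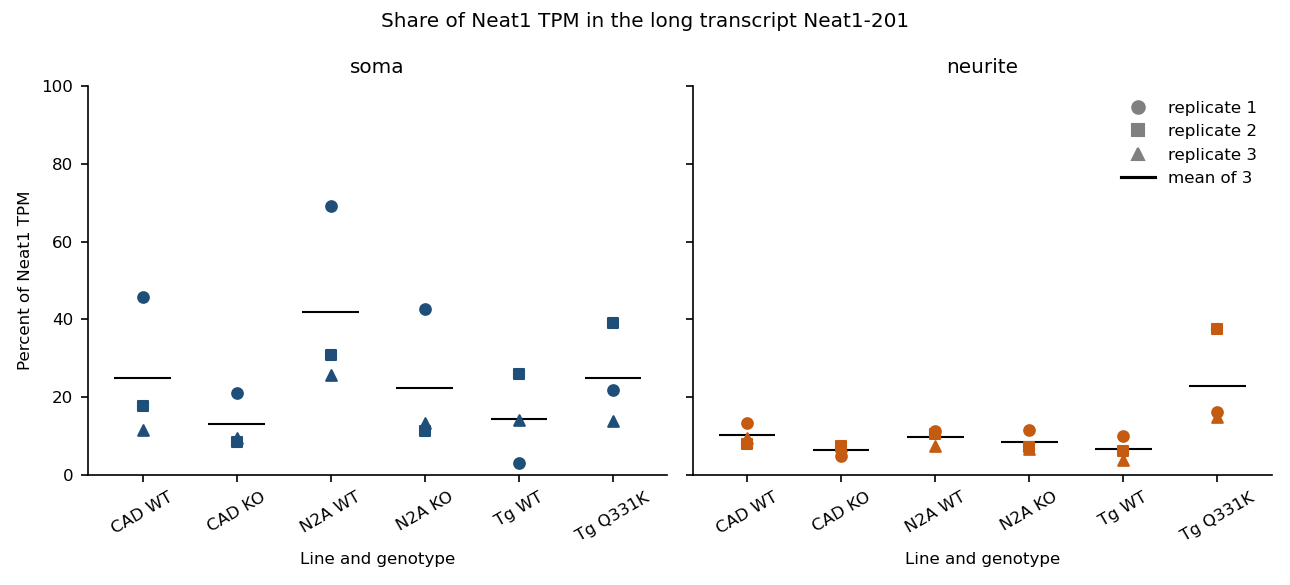
Percent of Neat1 TPM in the long transcript Neat1-201 in each soma (left) and neurite (right) library, by line and genotype, with the mean of 3 as a bar. The mean was 42.0% in wild-type N2A somas and 9.77% in wild-type N2A neurites.

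In tests of single transcripts 0 transcripts of the 5 genes were called on knockout by edgeR in CAD somas, neurites or LR, where 4.15%, 5.48% and 0.0795% of transcripts were called, and 0, 2 and 0 had an unadjusted p under 0.05. In N2A cells 0 were called in somas, neurites or LR, where 3.06%, 1.72% and 0.0283% were called, and 2, 1 and 1 had an unadjusted p under 0.05. Transcripts were not run in DESeq2. Neat1-201 was at -1.67 in N2A somas (FDR 0.219) and the short isoform at -0.29 (FDR 0.413). Without replicate 1 Neat1-201 was called in N2A somas at -2.00 (FDR 0.00406, against 0.00406 to 0.601 over the alternatives). Between the transgenes 0 were called in somas, neurites or LR, where 0.00288%, 0.0230% and 0.0144% were called, with 0 at an unadjusted p under 0.05 in each.

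Matches to the word GUGUG, to its shifted form UGUGU and to the related word GUAUG, all GU-rich like the sequence TDP-43 prefers, were counted on the transcript strand of each gene's longest annotated transcript, overlaps included. The Meg3 transcript had 182 matches in 14548 bases, or 12.5 per kb, and Neat1-201 had 219 in 20771 bases, or 10.5 per kb. That of Miat had 9.49 per kb. Kcnq1ot1-201 had 4.34 per kb and Malat1-201 had 4.01 per kb, near the 4.54 per kb of annotated lncRNA transcripts pooled. Of 30258 annotated lncRNA transcripts, 3.73% had a density at or above that of Meg3, 5.74% that of Neat1 and 7.28% that of Miat. These densities are those of the longest transcript only. The least dense annotated transcript had 0 per kb for Malat1, Meg3 and Miat and 2.81 per kb for Neat1. A match is a description and not a binding site.

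The window of 30 bases with the most matches is shown for all but Malat1, whose window held only 3, since it holds their GU repeats, written as DNA from the annotated transcripts of mouse build mm10, with matches in capitals. That of Neat1 lies at chr19:5826022-5826051 on the minus strand with 22 matches, that of Meg3 at chr12:109565122-109565151 on the plus strand with 24, that of Kcnq1ot1 at chr7:143209691-143209720 on the minus strand with 26, and that of Miat at chr5:112213724-112213753 on the minus strand with 21.
Neat1: GTGTGTGTGTGTGTGTGTGTGTGTGGTGTG
Meg3: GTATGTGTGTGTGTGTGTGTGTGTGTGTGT
Kcnq1ot1: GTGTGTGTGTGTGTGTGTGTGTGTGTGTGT
Miat: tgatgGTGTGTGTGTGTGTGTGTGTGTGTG

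The genes lie on chromosome 19 (Malat1 at 5795690 to 5802672 and Neat1 at 5824708 to 5845478, neighbours on the minus strand), chromosome 12 (Meg3 at 109541001 to 109571726), chromosome 7 (Kcnq1ot1 at 143203458 to 143296549) and chromosome 5 (Miat at 112213228 to 112229395). Kcnq1ot1 lies within Kcnq1 on the opposite strand over all of its 93092 bases. On the opposite strand Malat1 shares 453 bases with Gm37376, Meg3 3096 bases with Gm26906 and Miat 13935 bases with Gm26953. The strand setting of the quantification is not stated, so reads of such pairs cannot be told apart.

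Genes whose log2 CPM was most like that of each RNA over the 36 libraries were sought among 13230 genes tested in every experiment. For Malat1 they were Gm43571 (Pearson r = 0.897, Spearman rho = 0.920), Gm43336 (r = 0.872) and Lncpint (r = 0.868), a nuclear lncRNA. For Kcnq1ot1 they were Gm42986 (r = 0.915), 5330431K02Rik (r = 0.904) and Gm17132 (r = 0.90). For Neat1 they were Gm48415 (r = 0.938), Lmbr1l (r = 0.933) and Gm21897 (r = 0.932), but within groups r was 0.0833 for Lmbr1l. Malat1 and Kcnq1ot1 had r = 0.863 with each other over all libraries and 0.864 within groups. Within soma groups r was 0.923 and within neurite groups 0.502. Libraries share line, compartment and replicate, so these values are descriptions. Meg3 (nearest Slc16a10, Usp36 and Eml5) and Miat (nearest Pcdha11, Gm38082 and Ttc16) were too sparse for theirs to be read.

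Partner and neighbour genes were given from lists of paraspeckle and nuclear speckle proteins, RNase P, MRP and Z subunits (RNase P and RNase Z trim the ends of Malat1 and Neat1), the imprinted neighbours of Meg3 and of Kcnq1ot1, and other nuclear and cytoplasmic lncRNAs. In the change of LR on knockout 0 genes of the 7 lists were called by edgeR in CAD or in N2A. Of 17 paraspeckle proteins, 2 were called higher and 2 lower in CAD somas, where 22.8% of all genes were called. Rbmx rose by 0.57 in CAD somas, 0.81 in CAD neurites and 0.74 in N2A neurites on the log2 scale. Ewsr1 fell by 0.24 in CAD somas and by 0.28 in N2A somas. Of 16 nuclear speckle proteins, 1 was called in CAD somas and 2 in N2A somas (against 22.8% and 16.1% of all genes), and Ddx39b rose in both, by 0.66 and 0.38.

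Called genes made up 22.8% of all genes in CAD somas and 16.1% in N2A somas, against 3 of 9 and 5 of 10 tested RNase subunits. Among these Pop1 rose by 0.97 in CAD somas and by 0.49 in N2A somas, while Pop4 fell by 0.82 in CAD somas and rose by 0.63 in N2A somas. Of the imprinted neighbours of Meg3, 1 of 3 tested, Begain, was called in CAD somas, at 0.84. Of the neighbours of Kcnq1ot1, 0 of 6 tested were called by edgeR in CAD somas and 2 of 7 in N2A somas, where Tssc4 rose by 0.48 and Cars fell by 0.54. Of other nuclear lncRNAs 2 of 9 were called in N2A somas, where Peg13 rose by 0.78 and Ftx fell by 0.73, and of cytoplasmic ones 2 of 11 in CAD somas, where Snhg1 rose by 0.48 and Zfas1 by 0.50. Over 210 refits of such genes and Tardbp without 1 replicate, a call was lost in 87.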

How the data were processed

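Values came from the deposited Salmon quantification of 36 mouse libraries, in which the authors give estimated counts and TPM per transcript, after trimming with cutadapt and quantification with Salmon, both without a stated version, against build mm10. The deposited estimated counts and the deposited TPM were summed to genes with GENCODE vM21, a later version than the one the study names, and the counts were rounded. Intervals of 95% use the t distribution with the df of the edgeR test. The molecule is given as polyA RNA, and recovery of the ends without a poly(A) tail was not tested. edgeR 4.0.16 in R 4.3.3 fitted each experiment over 4 groups (TMM, filterByExpr by group, quasi-likelihood test, Benjamini-Hochberg over all genes or transcripts, FDR under 0.01), and CAD and N2A together for the difference between lines. DESeq2 1.42.0 was the other tool. Python 3.11.15 with pandas 2.3.3, numpy 2.4.6, scipy 1.17.1 and matplotlib 3.10.9 did the rest. Fits were tested on simulated data. Isoform shares were compared by an exact two-sided permutation test of 20 arrangements.

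The members and the lists were chosen with earlier results of these data known. Genes named are every member, Tardbp, transcripts with at least 10% of a member's TPM in a group mean, the 3 genes most alike (log2 CPM, prior count 1) and list genes past the threshold, some of which are given here. 1 gene of the lists is not reported here and was left out of their counts. Sequence windows were limited to 30 bases. Alternatives were DESeq2, upper-quartile scaling, no low-count filter, at least 10 counts in every library, FDR 0.05, length-scaled counts, terms for replicate number or culture, and leaving out each replicate. In the fit without the filter edgeR set an infinite prior, so it was left out of the FDR ranges over the alternatives after the data were seen, and a fit without the filter but with a robust prior was added. Human, reporter, binding and labelling libraries of the series were left out because the rule that chose the members names the CAD, N2A and Q331K experiments.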

Additional observations from a re-analysis of the deposited data

Results flagged for a closer look

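For 15 results on genes named here, the effect of knockout differed between N2A and CAD cells in the edgeR test of the difference itself (FDR under 0.01), and none of them is one of the 5 lncRNAs. Of all genes 10.5% were called for this difference in somas and 9.18% in neurites, and list genes were named because they passed a threshold. Values are N2A minus CAD on the log2 scale. In somas the difference was 0.82 for Tardbp, 1.53 for Pop4, 0.67 for Pop7 and 0.52 for Rpp14. It was 0.70 for Smarca4, 0.84 for Peg13 and -0.86 for Ftx. For the neighbours of Kcnq1ot1 it was 0.79 for Tssc4 and 0.42 for Nap1l4. In neurites the difference was 0.53 for Tardbp, 1.30 for Pop4, -0.61 for Pop1 and 0.70 for Smarca4. For the snoRNA hosts it was -0.67 for Snhg1 and -0.63 for Zfas1.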

How the results depend on the processing

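Leaving out 1 replicate kept the direction and the side of the threshold in 293 of 354 log2 changes of the 5 lncRNAs and their transcripts, 12 became called, 5 lost the call and 44 changed sign. Under the other alternatives 542 of 597 kept both, 41 became called (20 of them in the unfiltered fit described next), 6 lost the call and 8 changed sign. Of other named genes, 120 of 210 kept both without a replicate, 87 lost the call (with fewer samples) and 3 changed sign. The cause was not tested for any result below unless stated.

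The planned fit without a low-count filter cannot be read as support for a call: edgeR set an infinite prior there, so that each gene's own spread among replicates was disregarded (for Malat1 in CAD cells the quasi-dispersion of 29.4 became 0.843). It called 1 of the 5 lncRNAs for LR change and 2 for soma level in CAD, 3 for neurite against soma in knockout CAD, 3 for LR change, 3 for soma level and 1 for neurite level in N2A, 3 for neurite against soma in knockout N2A, and 2 with either transgene. With a robust prior, chosen after seeing the data, 0 were called for neurite against soma in wild-type and in knockout CAD cells, and 1 for neurite level in N2A.

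At FDR 0.05, 1 was called for neurite level in CAD, 2 for neurite against soma in knockout CAD, 2 for soma level and 1 for neurite level in N2A, 1 for neurite against soma in knockout N2A and 3 with Q331K. With at least 10 counts in every library, which leaves fewer genes, 2 were called for neurite against soma in knockout CAD and 1 in knockout N2A. The library of the same number was the best match of 3 in 10, 9 and 9 of 18 pairs in CAD, N2A and the transgene experiment (r over 0.1 in 6, 5 and 5), with r up to 0.449 between CAD and 0.521 between N2A somas. With a replicate block 2 were called for neurite against soma in knockout CAD, 2 for soma level in N2A and 1 for neurite against soma in knockout N2A, and Malat1-203 in N2A somas was at 0.54. With a replicate block by culture 2 were called in knockout CAD and 1 in knockout N2A for neurite against soma.

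Without 1 replicate the number called ran from 0 to 3 for neurite against soma in wild-type CAD, 1 to 2 in knockout CAD, 2 to 4 in wild-type N2A, 0 to 1 in knockout N2A and 0 to 2 with Q331K. It ran from 0 to 1 for LR change in N2A, 0 to 3 for soma level in N2A, 0 to 2 for its difference between lines and 0 to 1 for transcripts in N2A somas.

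With length-scaled counts the sign changed for Meg3 in LR change in CAD (-0.53), Neat1 in CAD somas (0.00283), Neat1 in Q331K neurites against wild type (-0.77), Neat1 in neurite against soma with the wild-type transgene (0.46), Tardbp in Q331K somas (0.0706) and Kcnq1ot1 in N2A neurites (0.0599). Kcnq1ot1 in N2A neurites was also at 0.0116 with upper-quartile scaling and 0.0219 with at least 10 counts in every library. Upper-quartile scaling moved the median gene to -0.33 in neurite against soma in wild-type N2A cells, from -0.03.

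Small values changed sign without a replicate. In CAD the range was -0.24 to 0.43 for the LR change of Kcnq1ot1 (Kcnq1ot1-201 -0.26 to 0.38), and -0.10 to 0.30 for its soma level (-0.10 to 0.32). In CAD neurites it was -0.12 to 0.37 for Kcnq1ot1 (Kcnq1ot1-201 -0.10 to 0.36), -0.16 to 0.38 for Malat1 (Malat1-201 -0.14 to 0.37), -0.0240 to 0.46 for Neat1 and -0.67 to 0.28 for Neat1-201. In N2A neurites it was -0.12 to 0.0853 for Kcnq1ot1, -0.19 to 0.0140 for Kcnq1ot1-201 and -0.0629 to 0.29 for Neat1-201, and in N2A somas -0.98 to 5.51 for Malat1-203. Between transgenes the LR difference was -1.28 to 0.23 for Kcnq1ot1 (Kcnq1ot1-201 -1.26 to 0.24), -0.65 to 0.19 for Malat1 (Malat1-201 -0.64 to 0.20), -1.32 to 0.0396 for Neat1-201 and -0.77 to 0.00661 for the short Neat1 isoform. In somas it was -0.20 to 0.96 for Kcnq1ot1 (Kcnq1ot1-201 -0.20 to 0.94), -0.30 to 0.46 for Malat1 (Malat1-201 -0.29 to 0.45), -1.63 to 8.23 for Malat1-203, -0.11 to 0.38 for the short Neat1 isoform and -0.11 to 0.0279 for Tardbp. In neurites it was -0.33 to 0.0305 for Kcnq1ot1 (Kcnq1ot1-201 -0.32 to 0.0439), -7.36 to 0.0625 for Malat1-203, -0.22 to 0.54 for Neat1 and -0.00347 to 0.12 for Tardbp. For the difference between lines it was -0.92 to 0.94 for Meg3 in LR, and in neurites -1.48 to 0.68 for Meg3, -0.12 to 0.44 for Neat1 and -0.40 to 0.22 for Kcnq1ot1.

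By estimated counts the difference in the share of Neat1-201 was -11.6 percentage points for knockout against wild-type CAD neurites, -16.1 for neurites against somas in knockout CAD and -4.04 for knockout against wild-type N2A neurites. Without 1 replicate that in CAD neurites ran from -5.36 to -1.38. Meg3 had 0 to 66.1 and Miat 0 to 5 estimated counts per library, and Neat1 had 12 to 114 in the transgene experiment. Malat1-203 was uneven, with 0 to 180 estimated counts among the wild-type N2A soma libraries. The effect of depth was not tested.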
